A study of Mus musculus with 8 samples.

Results

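The genes encoding the nucleosome-binding proteins of the HMGN family (Hmgn1, Hmgn2 and Hmgn3) and the DNA-bending proteins of the HMGB family (Hmgb1, Hmgb2 and Hmgb3) were examined in mouse proB cell colonies. They are 6 of the 27835 genes measured, taken by their Ensembl gene identifiers, and all 6 had a value on every array. The choice was made with earlier results of these data known. The study compared 4 samples labelled as HMGN1 over-expressing transgenic cells with 4 labelled as wild-type, each on 1 Affymetrix expression array. In both groups bone marrow was grown in a methylcellulose medium for B cells, in which early progenitors form colonies, and the colonies were taken at 1 week. The promoter of the transgene, the species of its HMGN1 sequence, the number of transgenic lines and the age and strain of the mice are not given in the sources used here. The labels do not state that each array came from its own mouse, so the p-values rest on the spread between arrays, which may be technical. The probe values carry no gene symbols, so the proB label was not checked against lineage markers. Wild-type replicate 3 stood apart from the other arrays over all genes, with the largest weight, -0.797, on the first component of the residuals, which held 34.5% of their variance, and each gene's difference is given with and without it.

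HMGN proteins bind the nucleosome itself, in competition with the linker histone H1, and loosen the folding of chromatin. HMGB proteins carry paired HMG boxes that bend DNA and help other factors to assemble on it. In B cell progenitors HMGB1 and HMGB2 are known as cofactors of the RAG recombinase, which cuts the antigen receptor genes. HMGN1 lies in the human 21q22 region, whose triplication is the subject of the study. It is the protein that the labels name as overexpressed in the transgenic cells.

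The sequences around the start sites of 3 of these genes are shown first. Hmgn1 is shown because it encodes the protein that the labels of the transgenic cells name as overexpressed. Hmgb1 and Hmgb2 are shown because their values had the highest Pearson r over 8 arrays among the 15 pairs of the 6 genes. Each line holds 300 bases, 250 before and 50 after the start of the gene, 5′ to 3′ on the gene's strand, taken from RefSeq on GRCm38.p6, which may not be the build behind the arrays. Capitals mark CCAAT, a box known to bind the factor NF-Y, and TTTGAA, the letters of an element known from the promoters of cell-cycle genes, each searched on both strands.
Hmgn1, chr16:96127676-96127975, minus strand: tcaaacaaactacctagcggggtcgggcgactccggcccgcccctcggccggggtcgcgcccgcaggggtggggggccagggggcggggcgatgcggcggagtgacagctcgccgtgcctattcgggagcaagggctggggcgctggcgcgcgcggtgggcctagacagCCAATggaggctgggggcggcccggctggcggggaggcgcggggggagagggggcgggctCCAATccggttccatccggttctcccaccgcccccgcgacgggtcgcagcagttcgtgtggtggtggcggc
Hmgb1, chr5:149053008-149053307, minus strand: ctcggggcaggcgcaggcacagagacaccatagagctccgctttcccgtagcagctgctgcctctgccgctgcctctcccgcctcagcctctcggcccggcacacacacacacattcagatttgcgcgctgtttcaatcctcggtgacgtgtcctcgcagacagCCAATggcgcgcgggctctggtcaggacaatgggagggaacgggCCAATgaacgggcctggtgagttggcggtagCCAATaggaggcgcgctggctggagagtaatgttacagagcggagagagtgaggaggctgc
Hmgb2, chr8:57511593-57511892, plus strand: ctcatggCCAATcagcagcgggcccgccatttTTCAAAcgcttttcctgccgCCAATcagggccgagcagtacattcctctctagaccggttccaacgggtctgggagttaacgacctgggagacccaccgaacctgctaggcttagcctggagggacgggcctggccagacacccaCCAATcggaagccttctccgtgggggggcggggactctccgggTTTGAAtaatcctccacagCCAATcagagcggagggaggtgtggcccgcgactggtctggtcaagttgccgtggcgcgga

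The window of Hmgb2 held 4 copies of CCAAT, which begin 243, 198, 73 and 11 bases before the start, and 2 copies of TTTGAA. At least 4 copies of CCAAT occurred in 1.06% of the 32851 windows of this length in the table, and at least 2 of TTTGAA in 2.31%. The Hmgb1 window held 3 copies of CCAAT, as did that of Hmgb3, and 3 or more occurred in 3.37% of windows. Hmgb3 also held 1 TTTGAA, found in 17.9% of windows, and Hmgb1 held none. The Hmgn1 window held 2 copies of CCAAT, a number reached by 11.7% of windows, and no TTTGAA, and that of Hmgn2 held 1, where 37.4% of windows held at least 1. A second, internal start of Hmgb1 in the table, at chr5:149051567-149051866, held neither. No copies overlapped, and all begin before the start. The motif counts describe the letters and were not tested against the expression values.

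The mouse gene that encodes HMGN1 was examined first. Mouse Hmgn1 (ENSMUSG00000040681_at in the file) had an intensity of 129, 95.3, 129 and 112 in HMGN1-overexpressing replicates 1 to 4, against 107, 118, 87.0 and 117 in wild-type replicates 1 to 4. The highest 2 arrays were HMGN1-overexpressing and the lowest was wild-type, but HMGN1-overexpressing replicate 2 was the next lowest of all 8, so the genotypes overlapped. The means were 116 ± 16.1 in HMGN1-overexpressing colonies and 107 ± 14.4 in wild-type colonies (SD, n = 4 each), a 1.08-fold difference with a 95% interval from 0.89 to 1.31. The log2 difference of 0.11 (SE 0.125) missed the threshold of 0.05 (limma adjusted p = 0.785), and a two-sided exact permutation test over the 8 arrays gave p = 0.486. A rise of the Hmgn1 signal by more than 1.31-fold lay outside the interval. The sources used here do not say whether the probes of mouse Hmgn1 bind the transcript of the transgene, so this value does not check the labels. Without wild-type replicate 3, the lowest array, the log2 difference was 0.02. For this and the other genes pseudogenes were counted by name only, and the table of mouse genes lists 0 named after Hmgn1. Any under other names were not counted, so shared probes are not excluded for Hmgn1.

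**Figure D1:**
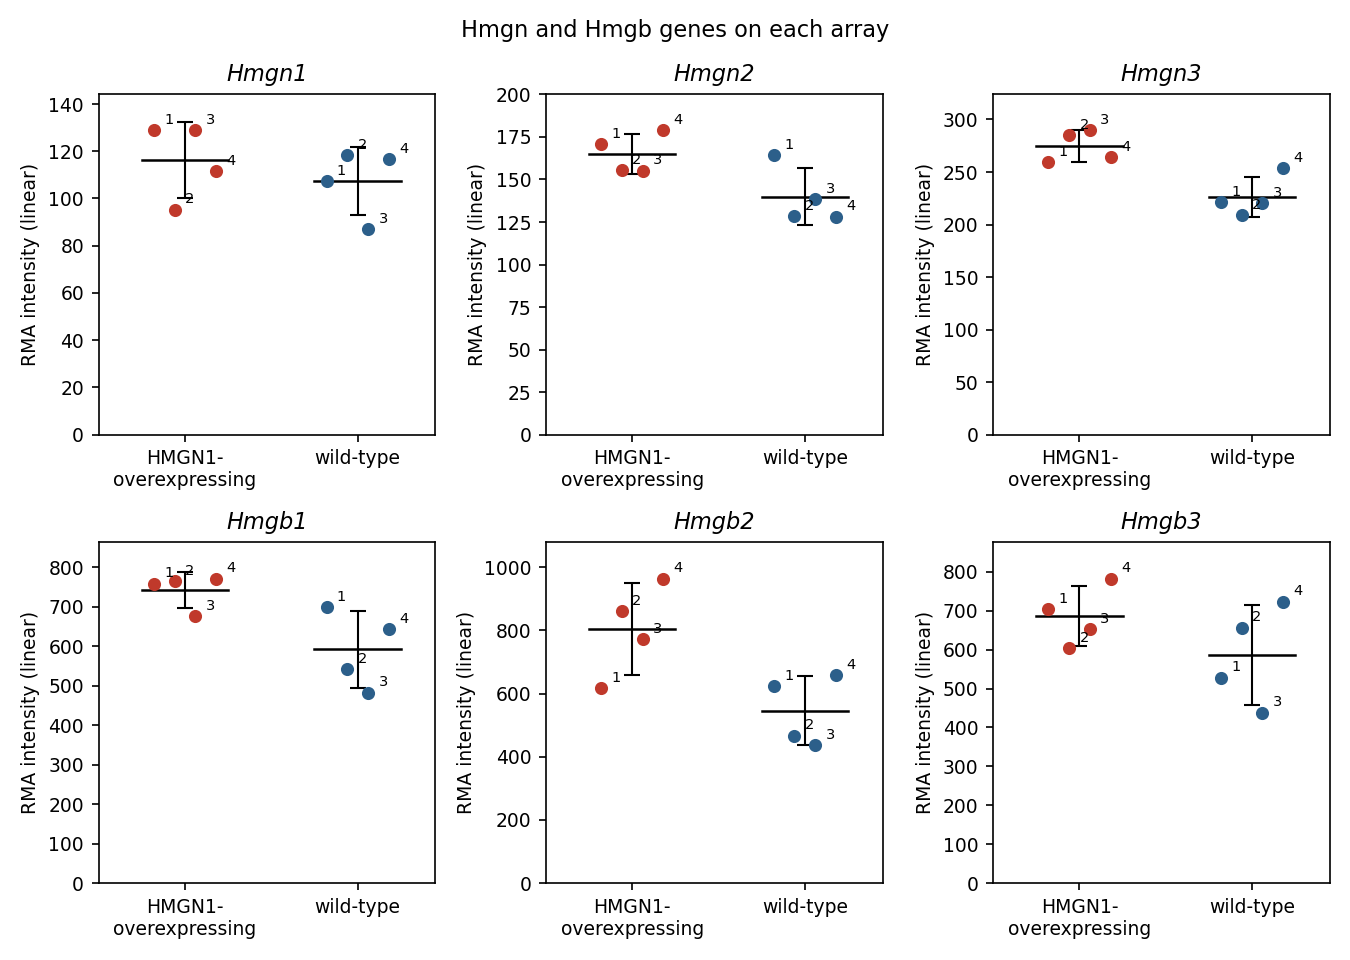
RMA intensity on a linear scale (y axis, from 0) of each of the 6 genes on each array, with HMGN1-overexpressing samples at the left in red and wild-type samples at the right in blue; numbers are replicates, horizontal lines are means and bars are SD (n = 4). The genotypes are fully apart for Hmgn3, at 259 to 290 in HMGN1-overexpressing arrays against 209 to 254 in wild-type arrays, and overlap for the other 5 genes.

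The other 2 nucleosome-binding genes had higher mean signals in HMGN1-overexpressing colonies, though neither passed the threshold over all genes. Hmgn2 (ENSMUSG00000003038_at) encodes the protein closest to HMGN1, which binds nucleosomes in the same way. Its intensity was 171, 156, 155 and 179 in HMGN1-overexpressing replicates 1 to 4, against 164, 129, 139 and 128 in wild-type replicates 1 to 4. Wild-type replicate 1 lay above 2 of the HMGN1-overexpressing arrays, and the other wild-type arrays lay below all of them. The means were 165 ± 11.7 in HMGN1-overexpressing colonies and 140 ± 16.9 in wild-type colonies (SD, n = 4 each), a 1.18-fold difference with a 95% interval from 1.03 to 1.37. The log2 difference was 0.24 (SE 0.0916, limma unadjusted p = 0.0244, limma adjusted p = 0.393), and the exact permutation test gave p = 0.0857. The table of mouse genes lists 1 pseudogene named after Hmgn2, and any under other names were not counted. Whether the sequences of such pseudogenes share probes with the gene is not known here.

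Hmgn3 (ENSMUSG00000066456_at), which encodes a family member known to bind the thyroid hormone receptor, was the 1 gene of the 6 whose genotypes did not overlap. Its intensity was 259, 285, 290 and 264 in HMGN1-overexpressing replicates 1 to 4, against 222, 209, 220 and 254 in wild-type replicates 1 to 4. Wild-type replicate 4 came close to HMGN1-overexpressing replicate 1, while the other 3 wild-type arrays lay within a narrow range below. The means were 275 ± 15.2 in HMGN1-overexpressing colonies and 226 ± 19.3 in wild-type colonies (SD, n = 4 each), a 1.22-fold difference with a 95% interval from 1.08 to 1.37. The log2 difference was 0.28 (SE 0.0752, limma unadjusted p = 0.00397), and after Benjamini-Hochberg adjustment over all genes it did not pass (limma adjusted p = 0.225). The exact permutation test gave p = 0.0286, the smallest that 4 arrays against 4 allow. Groups that did not overlap, with HMGN1-overexpressing arrays higher, were found for 4.15% of all genes and for 6.78% of the 13094 genes with at least the mean signal of Hmgn1, and 1 gene of 6 does not set the family apart from that share.

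Hmgb2 (ENSMUSG00000054717_at) had the widest difference of the 6, and also the widest residual spread. It encodes an HMG-box protein that is known to be abundant in dividing cells. Its intensity was 618, 861, 772 and 964 in HMGN1-overexpressing replicates 1 to 4, against 623, 467, 438 and 658 in wild-type replicates 1 to 4. HMGN1-overexpressing replicates 2, 3 and 4 lay above every wild-type array, while replicate 1 lay below wild-type replicates 1 and 4. The means were 804 ± 147 in HMGN1-overexpressing colonies and 546 ± 110 in wild-type colonies (SD, n = 4 each), a 1.48-fold difference with a 95% interval from 1.14 to 1.91. The log2 difference was 0.56 (SE 0.166, limma unadjusted p = 0.00728, limma adjusted p = 0.267), and the exact permutation test gave p = 0.0857. A difference at least as high was found for 0.313% of all genes. Its residual SD was 0.28 on the log2 scale, against a median of 0.12 over all genes. The log2 difference was 0.68 without HMGN1-overexpressing replicate 1 and 0.46 without wild-type replicate 3.

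Hmgb1 (ENSMUSG00000066551_at) encodes the most studied protein of the family, a chromatin protein that also acts as an alarm signal when released from cells. Its intensity was 758, 764, 676 and 771 in HMGN1-overexpressing replicates 1 to 4, against 699, 542, 482 and 643 in wild-type replicates 1 to 4. The genotypes overlapped by a single pair, with HMGN1-overexpressing replicate 3 below wild-type replicate 1. The means were 742 ± 44.7 in HMGN1-overexpressing colonies and 592 ± 97.4 in wild-type colonies (SD, n = 4 each), a 1.27-fold difference with a 95% interval from 1.06 to 1.51. The log2 difference was 0.34 (SE 0.112, limma unadjusted p = 0.0133, limma adjusted p = 0.326), and the exact permutation test gave p = 0.0571. The table of mouse genes lists 9 pseudogenes named after Hmgb1, so its signal is uncertain where their sequences share probes with it.

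Hmgb3 (ENSMUSG00000015217_at) encodes the HMG-box protein of the family known from blood stem cells and progenitors, where it is linked to the balance of self-renewal and differentiation. Its intensity was 705, 604, 653 and 783 in HMGN1-overexpressing replicates 1 to 4, against 528, 657, 438 and 723 in wild-type replicates 1 to 4. The genotypes were mixed, with wild-type replicate 4 above 3 of the HMGN1-overexpressing arrays. The means were 686 ± 76.3 in HMGN1-overexpressing colonies and 587 ± 128 in wild-type colonies (SD, n = 4 each), a 1.19-fold difference with a 95% interval from 0.94 to 1.50. The log2 difference of 0.25 (SE 0.15) did not pass (limma adjusted p = 0.605), and the exact permutation test gave p = 0.286. Without wild-type replicate 3 the log2 difference was 0.11. The table lists 1 pseudogene named after Hmgb3.

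**Figure D2:**
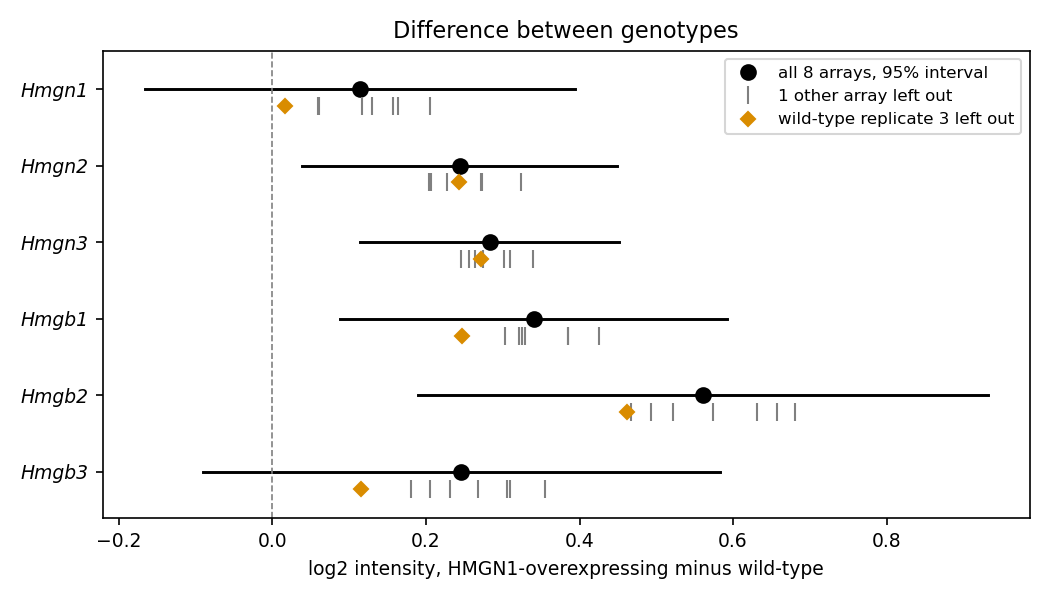
Difference in log2 intensity, HMGN1-overexpressing minus wild-type (x axis), for each gene (y axis): black points and lines are the fit over 8 arrays with its 95% interval, grey ticks the fits with 1 array left out, and orange diamonds the fit without wild-type replicate 3. All 6 differences lie above 0, from 0.11 for Hmgn1 to 0.56 for Hmgb2, the intervals of Hmgn1 and Hmgb3 include 0, and leaving out wild-type replicate 3 lowers the difference of Hmgn1 to 0.02 and of Hmgb3 to 0.11.

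All 6 genes had a higher mean in HMGN1-overexpressing colonies, with a median log2 difference of 0.26, but 0 of 6 passed the adjusted threshold, as did 0.0144% of all genes. A mean difference above 0 was found for 49.4% of all genes and for 52.3% of those with at least the mean signal of Hmgn1, with medians of -0.0018 and 0.0070. The brighter genes begin at the signal of Hmgn1, the dimmest of the 6, below which 53% of all genes lay. Below Hmgb1, Hmgb2 and Hmgb3 lay 80.2%, 80.1% and 79.5%, and no share was taken among genes as bright as these. At an unadjusted p under 0.05, 4 of the 6 (Hmgn2, Hmgn3, Hmgb1 and Hmgb2) were higher and 0 lower. At that level 5.83% of all genes and 8.77% of the brighter ones were higher. Of all genes 2902 were under that level in either direction, 1623 of them higher. Leaving out each array in turn kept Hmgn3, Hmgb1 and Hmgb2 under that level in 8 of 8 fits and Hmgn2 in 4 of 8. The unadjusted p of Hmgn2 was over 0.05 without HMGN1-overexpressing replicate 1 or 4 or wild-type replicate 2 or 4, with 0.0697 the highest by limma. Hmgb3 came under that level in 1 of 8 fits, without wild-type replicate 4 (limma unadjusted p = 0.0337). The values of the 6 genes come from the same 8 arrays and are not independent of each other, so these counts are a description and no test of the families was made. The differences of the 6 genes were not tested against each other.

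Wild-type replicate 3 had the lowest value of all 8 arrays for Hmgn1, Hmgb1, Hmgb2 and Hmgb3, but not for Hmgn2, where wild-type replicate 4 was lowest, or for Hmgn3, where wild-type replicate 2 was. Without it the log2 differences of Hmgn2, Hmgn3 and Hmgb1 were 0.24, 0.27 and 0.25, those of the other 3 genes being given with their values above. At the other end, HMGN1-overexpressing replicate 4 was highest for Hmgn2, Hmgb1, Hmgb2 and Hmgb3, replicate 3 for Hmgn3 and replicate 1 for Hmgn1.

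Hmgb2 is known as a gene of dividing cells, and in a published set of gene pairs that mark cell-cycle phases in mouse embryonic stem cells it was the higher member in 20 of its 31 G2M pairs, in 4 of its 5 S pairs and in 3 of its 27 G1 pairs. Lists of genes by Ensembl identifier for each phase were therefore set beside it, with 63 G1, 52 S and 54 G2M genes measured and none of the 6 genes among them. In the G2M list 43 genes had a higher and 11 a lower mean in HMGN1-overexpressing colonies, with a median log2 difference of 0.12. In the S list 39 were higher and 13 lower, with a median of 0.11, and in the G1 list 44 were higher and 19 lower, with a median of 0.07. Those higher were 79.6%, 75% and 69.8% of the G2M, S and G1 lists. The share was 49.4% of all genes and 52.3% of those with at least the mean signal of Hmgn1. By limma adjusted p, 0 genes of these lists passed, while at an unadjusted p under 0.05 10 G2M, 13 S and 9 G1 genes were higher and 2, 2 and 3 lower. The genes higher at that level were 18.5% of the G2M list, 25% of the S list and 14.3% of the G1 list, against 5.83% of all genes and 8.77% of those with at least the mean signal of Hmgn1. Without wild-type replicate 3, a setting added after the data were seen, the median log2 difference was 0.05 in the G2M list, 0.05 in the S list and 0.03 in the G1 list, with 39, 35 and 41 genes higher and 15, 17 and 22 lower. Those higher were 72.2%, 67.3% and 65.1% of the G2M, S and G1 lists, against 49.2% of all genes in the same setting. Without that array 7 G2M, 11 S and 6 G1 genes were higher at an unadjusted p under 0.05 and 1, 1 and 8 lower. The genes higher at that level were then 13% of the G2M list, 21.2% of the S list and 9.52% of the G1 list, against 5.37% of all genes. Without that array no share was taken among genes with at least the mean signal of Hmgn1. In the G1 list 8 genes were lower and 6 higher at that level, while by mean difference 22 were lower and 41 higher. The share of all genes lower at that level was not taken in either setting. The mean of the G2M list, with each gene centred on its 8 arrays, was -0.0036, 0.07, 0.08 and 0.05 in HMGN1-overexpressing replicates 1 to 4, against -0.03, 0.0069, -0.18 and 0.0062 in wild-type replicates 1 to 4. The mean of the S list was 0.0086, 0.06, 0.08 and 0.03 in HMGN1-overexpressing replicates 1 to 4, against -0.0077, -0.01, -0.14 and -0.01 in wild-type replicates 1 to 4. Hmgb2 on the same scale was -0.08, 0.40, 0.24 and 0.56 in HMGN1-overexpressing replicates 1 to 4, against -0.07, -0.48, -0.58 and 0.0093 in wild-type replicates 1 to 4. HMGN1-overexpressing replicate 1 was the lowest of its genotype in Hmgb2 and in the G2M and S lists. Wild-type replicate 3 was the lowest of all 8 arrays in Hmgb2 and in all 3 lists. Wild-type replicate 2 was low in Hmgb2 but near the mean in the G2M and S lists. The mean of the G1 list was 0.03 in each HMGN1-overexpressing array, against 0.04, -0.02, -0.15 and 0.0066 in wild-type replicates 1 to 4. The part of the cell cycle in the difference of Hmgb2 was not tested, and in bulk colonies a larger share of dividing cells and more RNA per cell cannot be told apart.

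**Figure D3:**
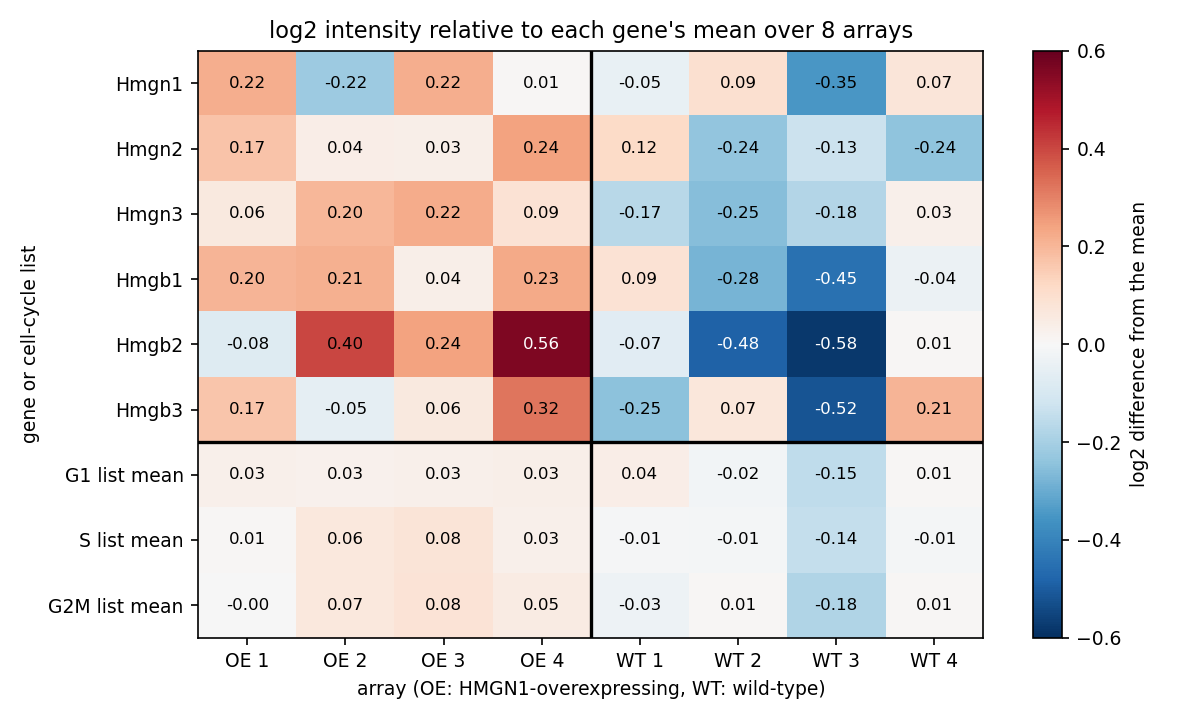
Log2 intensity of the 6 genes, and mean of the G1, S and G2M phase lists (rows), on each array (columns; OE is HMGN1-overexpressing, at the left, and WT wild-type), with each gene centred on its 8 arrays; red is higher and blue lower, with the value printed in each cell. Wild-type replicate 3 is low in Hmgn1, Hmgb1, Hmgb2 and Hmgb3, from -0.35 to -0.58, and lowest in all 3 lists, and Hmgb2 has the widest range, from -0.58 to 0.56.

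The 6 genes did not share 1 pattern across the arrays. Which pair was closest depended on the measure. By Pearson r it was Hmgb1 and Hmgb2, with r of 0.86 and a Spearman rho of 0.79 over 8 arrays, and r of 0.69 after each genotype's mean was removed and 0.78 without wild-type replicate 3. Without the 2 arrays farthest from the median of Hmgb1, r was 0.48. By Spearman rho the closest pair was Hmgn2 and Hmgb1 (r = 0.76, rho = 0.83), with r of 0.50 within genotypes, 0.85 without wild-type replicate 3 and 0.85 without the 2 arrays farthest from the median of Hmgn2. Hmgn3 and Hmgb2 had r = 0.83 and rho = 0.81, with 0.54 within genotypes and 0.80 without wild-type replicate 3. Without the 2 arrays farthest from the median of Hmgn3, their r was 0.60. Hmgn1 was unlike the other Hmgn genes, at r = 0.15 with Hmgn2 and 0.26 with Hmgn3, and most like Hmgb3 (r = 0.73, rho = 0.57). For Hmgn1 and Hmgb3 r was 0.70 within genotypes, the highest of the 15 pairs there, and 0.42 without wild-type replicate 3. Without the 2 arrays farthest from the median of Hmgn1 it was 0.30. Of 5963 genes with a mean log2 value of at least 6 and an SD of at least 0.15, 208 were more like Hmgn1 than Hmgb3 was, and 96 were more like Hmgb2 than Hmgb1 was. The 5 genes most like Hmgn1 had r from 0.943 to 0.965 and the 5 most like Hmgb2 from 0.942 to 0.981, with ENSMUSG00000094089 and ENSMUSG00000050147 at the top. None of these 10 passed the adjusted threshold between genotypes, and their names are not paired with the identifiers here. These correlations are descriptions over shared arrays and carry no test.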

How the data were processed

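Total RNA of 8 proB colony samples was measured on 8 Affymetrix arrays. Values were summarised with RMA, per the submitters' processing notes, which gives all arrays nearly the same distribution and hides any shift in total RNA. The deposited values are an intensity on a linear scale, 1 per gene and array, read as linear from the values (5.80 to 17578, array medians 95.8 to 100.1). There were 0 columns of other samples. The RMA version, the probe definition and the build are not given in the sources used here.

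Log2 of the intensity was fitted over all 27835 genes with limma 3.58.1 in R 4.3.3 (lmFit, eBayes, no filter, no replicate block), with Benjamini-Hochberg adjustment over all genes and a threshold of 0.05. Differences are HMGN1-overexpressing minus wild-type, errors are SD over 4 arrays or the SE of the fit, and intervals are 95%. Each of the 6 genes also had a two-sided exact permutation test over arrays, whose smallest p with 4 against 4 is 0.0286. The fit was also run on simulated data with independent noise for each gene and array. Those data lack the component shared between genes here, so that run does not show how the fit behaves with it. Precision is limited by having 4 arrays a group.

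The 6 genes and the lists were chosen with earlier results of these data known. The rule for named genes took all 6, and the 5 genes most like Hmgn1 and Hmgb2 by Pearson r. Symbols of the 6 were paired with their identifiers in advance. A table of 49997 RefSeq genes (GRCm38.p6) held 0 Ensembl identifiers, so lists by symbol (other HMG-box genes, linker histones, HMGB1 receptors and lineage markers) were not used here. Promoters matched 5 of the 6 by symbol. Phase lists came from the marker pairs in scran 1.30.0: a gene needed 10 or more pairs of its phase, to be the higher one in a share of 0.9 or more, and a share under 0.5 in each other phase. Alternatives were each array left out, quantile normalization, median centring of the arrays, array weights, a variance prior with trend and robust fit, brighter genes only (above the median), 16 added before log2, the replicate number as a block and a covariate from the first residual component.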

Additional observations from a re-analysis of the deposited data

Results flagged for a closer look

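Among the HMGN1-overexpressing arrays, replicate 3 lay apart from the other 3 for Hmgb1, with a log2 intensity of 9.40 where the gap to the nearest array was 0.87 of the group's range. The other 3 arrays were between 9.57 and 9.59. Of 12 groups of values examined this was the only one with such an array. By chance such an array is found in about 1 in 20 groups, so 1 among 12 groups is not unusual. Without this array the log2 difference of Hmgb1 was 0.38, against 0.34 with all 8 arrays.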

How the results depend on the processing

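None of the 6 differences changed sign or passed the adjusted threshold under any of the 16 alternatives run. Leaving out 1 array gave log2 differences from 0.02 to 0.21 for Hmgn1, 0.20 to 0.32 for Hmgn2, 0.25 to 0.34 for Hmgn3, 0.25 to 0.43 for Hmgb1, 0.46 to 0.68 for Hmgb2 and 0.11 to 0.36 for Hmgb3. Wild-type replicate 3 gave the lowest value for Hmgn1, Hmgb1, Hmgb2 and Hmgb3. With array weights the difference of Hmgn1 was 0.04 and that of Hmgb3 was 0.15. The limma adjusted p of the 6 genes ranged over the alternatives from 0.0999, for Hmgn3 with the residual component as a covariate, to 0.975, for Hmgn1 without wild-type replicate 3. With the replicate number as a block, limma called 0 genes, with 2374 at an unadjusted p under 0.05, and the adjusted p was 0.468 for Hmgn3 and 0.409 for Hmgb2. The deviations of same-numbered arrays were not alike (r = -0.10, -0.07, -0.35 and -0.19 among genes above the median signal), and the labels state no pairing. Among all genes, 4 were called, against 241 with the residual component as a covariate and 0 to 40 with 1 array left out. That component came from the residuals of the same fit, so a lower residual variance was built in and its 241 calls lend no support. Calls were 0 without wild-type replicate 2 or 3 or HMGN1-overexpressing replicate 2, 3 or 4, and 1 without wild-type replicate 4. They were 9 without wild-type replicate 1 and 40 without HMGN1-overexpressing replicate 1. With 1 array left out, 2266 to 3038 genes had an unadjusted p under 0.05. The cause was not tested. The intensities come without background or detection calls, so how far each probe lay above background is unknown.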
